A study of Mus musculus with 22 samples.

Results

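The genes described are 32 members of the p53 pathway, taken as a named list of p53 regulators and direct targets out of the 24421 genes counted. All 32 were found by symbol in every library. They comprise p53 with 4 of its regulators, 12 genes of apoptosis, 5 of DNA repair, 4 of cell cycle arrest and division, and 6 of stress and metabolism. RNA came from primary mouse bladder urothelial organoids, small epithelial bodies grown in culture, with the Arid1a gene wild type (WT) or knocked out (KO). Arid1a encodes a subunit of the BAF chromatin remodelling complex. Total RNA and the polysome and subpolysome fractions of a sucrose gradient were sequenced from 3 WT and 3 KO samples each, and total RNA of isogenic mouse bladder cancer organoids from 2 samples labelled WT and 2 labelled KO. The way Arid1a was deleted, the part of the gene removed, other alleles of the cancer organoids, the age of the animals and the cultures behind the replicates are not stated in the labels. Since nothing says that replicates are separate cultures or animals, p-values refer to the spread among these libraries, and that spread may be technical.

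The p53 protein is a transcription factor that cells stabilize after DNA damage and other stress, and it switches on genes that stop division, repair DNA or kill the cell. Its main brake is a loop: p53 induces Mdm2, a ubiquitin ligase that marks p53 for destruction, while Mdm4, a relative of Mdm2, blocks its activity and Ppm1d, a phosphatase, switches off the damage signal. In the bladder, mutations of the p53 gene are common in invasive urothelial cancer. The level of Trp53 mRNA is not a measure of p53 protein, which was not measured here.

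Levels are CPM, read counts relative to library size and scaled by TMM factors, edgeR's correction for library composition. Total RNA and cancer libraries share one scale and the gradient libraries another, so levels are not compared between these sets except as named. A change was called at an adjusted p under 0.05 in edgeR's quasi-likelihood test fitted over all genes. The 22 libraries held 39245248 to 76594655 counts, and 1 CPM rested on at least 39.2 counts before scaling. Arid1a itself had 136, 154 and 138 CPM in the WT libraries and 92.2, 91.8 and 103 CPM in the KO libraries of total RNA (log2 -0.60, SE 0.06, adjusted p = 5.68e-06), with no overlap; counts of the whole gene do not separate a deleted exon. In polysomes it had 28.9, 20.8 and 18.1 CPM in the WT libraries and 20.2, 16.4 and 12 CPM in the KO libraries, which overlapped (log2 -0.48, SE 0.20, adjusted p = 0.0817). In subpolysomes it had 52.9, 54 and 48.2 CPM in the libraries labelled WT and 66.4, 56 and 54.1 CPM in those labelled KO (log2 0.19, SE 0.12, adjusted p = 0.276), and there the libraries labelled KO were not lower. In cancer it had 79.7 and 233 CPM in the libraries labelled WT and 208 and 67.3 CPM in those labelled KO, so the first replicate of each label goes against it: KO 1 had about as much Arid1a as WT 2, and WT 1 about as little as KO 2. Groups of the subpolysome and cancer libraries are therefore called labelled WT and labelled KO. The basal urothelial markers were present throughout, led by Krt5 or Krt14 in the primary organoids. Of 8 immune markers in the 6 total RNA libraries, Ptprc and Lyz2 were at 0 in all, Cd68 lay at 9.26 to 24.2 CPM, and the other 5 had at most 0.431 CPM.

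p53 binds DNA at a consensus half-site made of purines, a C, a pair of A or T bases, a G and pyrimidines, which reads the same on both strands. RefSeq promoter windows, from 250 bases before to 50 bases after a gene's start (GRCm38.p6), were matched for 24 of the 32 members. An exact half-site lay in the windows of 10 of them (41.7%), against 9.55% of all 27025 genes in the promoter table and 8.56% of the 17224 of these that were counted here. With 1 mismatch outside the 4 central bases the share was 70.8% against 42.8%, and a full site of 2 adjoining half-sites was found for 1 member, Ckap2 (4.17% against 0.189% of all genes). These are matches of letters in a short window, not measured binding. Since the members were listed as p53 regulators and direct targets, their higher share is not independent evidence of p53 binding. The sites are shown for the members with a half-site that also changed in KO total RNA, with the half-site in capitals and 5 flanking bases on each side (for Ckap2, both half-sites), to set members that rose beside members that fell.
Ckap2: tctgaAGACATGTCCTGACTTGTCAagcct
Ppm1d: ggggcGAGCTTGCTCttctt
Sesn1: ccttcAAGCTTGTTTttgct
Mdm2: gatagGAACTTGCCTagcga
Ccng1: tgcccGGGCAAGCCTtggca
Aen: aagccGGGCTTGTCCgggca
Trp53: cggaaGGACTTGCCCttact

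The Ckap2 window (chr8:22185998-22186027, minus strand, GRCm38) begins its site 203 bases before the gene's start, and its second half-site was found allowing at most 2 mismatches over the full site. The other sites begin 132 bases before the start of Ppm1d (chr11:85311117-85311136, plus strand), 186 before that of Mdm2 (chr10:117710930-117710949, minus strand) and 185 before that of Ccng1 (chr11:40755457-40755476, minus strand). The Sesn1 site begins 173 bases before a start that lies inside the gene (chr10:41887261-41887280, plus strand). The first base of Sesn1 in GENCODE is chr10:41809935. The Aen site begins 121 bases before one of the gene's starts and lies just after another (chr7:78895932-78895951, plus strand), and that of Trp53 75 bases before its start (chr11:69580279-69580298, plus strand). Bax, Ei24 and Polk also hold a half-site. Of the 10 members with a half-site, 3 were higher and 4 lower in KO total RNA and 3 did not pass. Of the 14 matched members without one, 3 were higher and 6 lower and 5 did not pass, and 53.2% of all genes were called there.

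Levels per length, as CPM per kilobase of merged exons, ordered the members in WT total RNA. Perp, a membrane protein of desmosomes and a p53 target, was highest at 441 ± 32 (mean ± SD, n = 3), ahead of Phlda3 at 159.6 ± 7.61 and Ccng1 at 139 ± 5.51. Btg2 (80.3 ± 1.23), Pmaip1 (75.5 ± 3.71), Bax (65 ± 2.54), Trp53 (64.6 ± 1.75) and Plk2 (59.1 ± 4.98) followed, with Bax and Trp53 not apart beyond their spread. Fas (1.14 ± 0.259) and Gdf15 (0.153 ± 0.0439) were lowest. In KO total RNA Perp stayed the highest at 476 ± 14.8 and Gdf15 the lowest at 0.213 ± 0.0716. On this scale Mdm2 (24.6 ± 1.3) was above Mdm4 (4.3 ± 0.41).

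**Figure D1:**
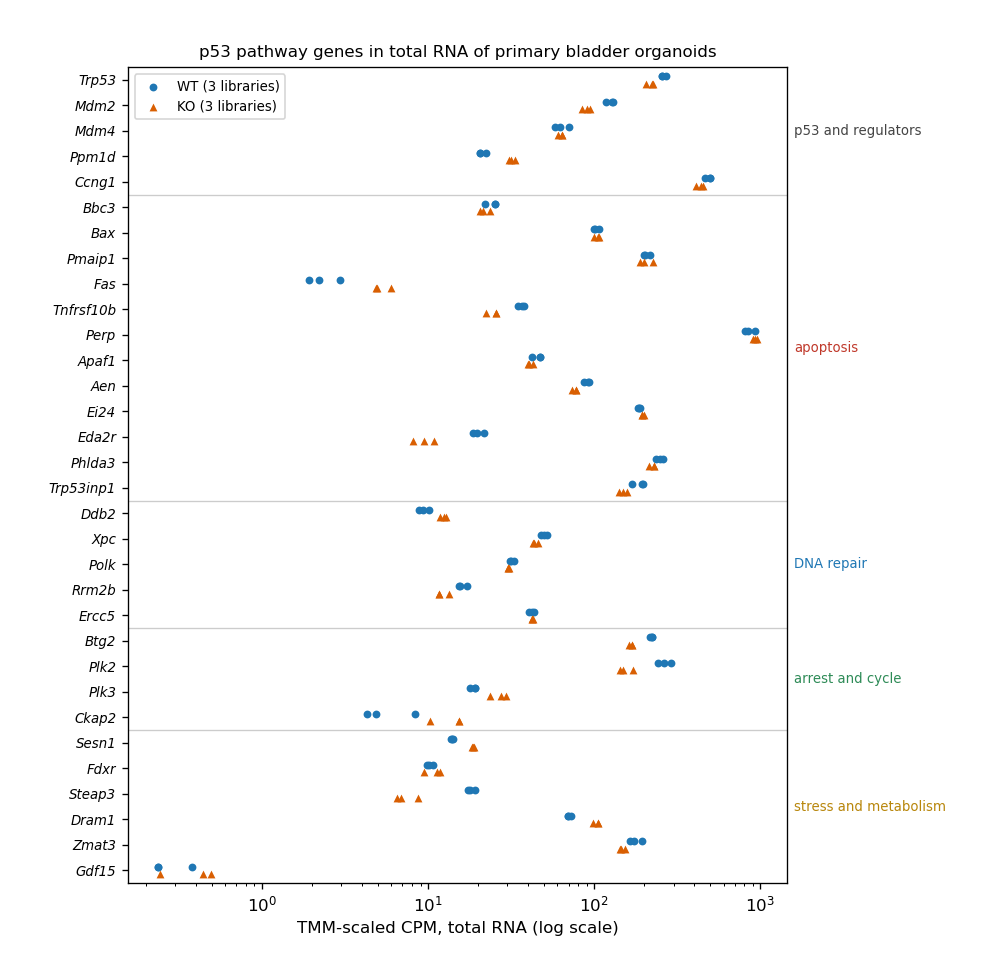
TMM-scaled CPM (log axis) of each of the 32 p53 pathway genes in total RNA of primary bladder organoids, 1 point per library (3 WT, circles; 3 KO, triangles), ordered by role. Eda2r, Steap3 and Plk2 lie lower in every KO library than in every WT library, and Fas, Ckap2 and Dram1 higher.

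In KO total RNA the p53 pathway genes moved in both directions: 7 were higher, 15 were lower and 10 did not pass. Among all 13198 genes tested, 53.2% were called (27% higher and 26.3% lower). The WT and KO libraries of 8 higher and 15 lower members did not overlap, where this held for 61% of all genes (32.7% higher and 28.3% lower). The members' median log2 change was -0.12, against 0.00259 over all genes. The TNF receptor family member Eda2r, the ferrireductase Steap3 and the kinase Plk2 fell, while the death receptor Fas and the spindle protein Ckap2 rose. In one fit of all 18 primary libraries, 7 of the 22 calls were lost: Rrm2b, Trp53inp1, Ddb2, Xpc, Ccng1, Apaf1 and Phlda3 (adjusted p 0.0523, 0.0578, 0.0583, 0.110, 0.199, 0.255 and 0.348).

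Among the regulators, Trp53 had 257, 269.5 and 258 CPM in the WT libraries and 226, 205 and 222 CPM in the KO libraries and fell slightly (log2 -0.28, SE 0.04, adjusted p = 0.000274). Mdm2 had 117, 129.7 and 128 CPM in the WT libraries and 83.9, 94.7 and 90.9 CPM in the KO libraries and fell more (log2 -0.49, SE 0.06, adjusted p = 1.76e-05). For both, every KO library lay below every WT library. Mdm4 had 62.1, 58.4 and 70.2 CPM in the WT libraries and 63.7, 60.7 and 64.1 CPM in the KO libraries, with overlap and no call (log2 -0.03, SE 0.06, adjusted p = 0.68; 95% interval -0.16 to 0.09). Ppm1d, the phosphatase that ends p53 signalling, was the regulator that rose, with 22.2, 20.5 and 20.6 CPM in the WT libraries and 33.2, 30.5 and 31.7 CPM in the KO libraries (log2 0.57, SE 0.06, adjusted p = 1.19e-05). Ccng1, cyclin G1, which acts on Mdm2 with a phosphatase, fell (log2 -0.19, adjusted p = 0.00608).

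Of the 12 apoptosis genes, 1 rose, 6 fell and 5 did not pass. Fas, the receptor of Fas ligand, had 2.94, 1.91 and 2.21 CPM in the WT libraries and 4.92, 4.87 and 5.95 CPM in the KO libraries, so it was low in all 6 libraries and rose in KO (log2 1.14, SE 0.17, adjusted p = 0.000175). Eda2r, a receptor of the TNF receptor family, had 19.7, 18.6 and 21.6 CPM in the WT libraries and 8.15, 10.9 and 9.45 CPM in the KO libraries and fell (log2 -1.09, SE 0.11, adjusted p = 5.55e-06). The TRAIL receptor Tnfrsf10b had 36.7, 37.9 and 34.7 CPM in the WT libraries and 25.5, 25.7 and 22.3 CPM in the KO libraries and fell as well (log2 -0.59, SE 0.07, adjusted p = 2.04e-05). The groups of these 3 receptor genes did not overlap, and Fas moved against the other two. Smaller falls were called for Trp53inp1, a p53 cofactor and autophagy protein (log2 -0.34, adjusted p = 0.000813), the nuclease Aen (log2 -0.26, adjusted p = 0.000523), the Akt inhibitor Phlda3 (log2 -0.17, adjusted p = 0.00947) and Apaf1, the core of the apoptosome (log2 -0.17, adjusted p = 0.0303). The Apaf1 groups overlapped, and its call was lost without KO 1, WT 2, WT 3 or KO 3 (adjusted p 0.0896 to 0.1004). The mitochondrial killers did not pass: Bbc3, which encodes PUMA (log2 -0.16, adjusted p = 0.101), Pmaip1, which encodes Noxa (log2 -0.03, adjusted p = 0.708), and the pore-forming Bax (log2 0.01, adjusted p = 0.918). Neither did Perp (log2 0.09, adjusted p = 0.158) nor Ei24, an endoplasmic reticulum protein (log2 0.07, adjusted p = 0.174). Without WT 2 or KO 2 Bbc3 passed as lower (adjusted p 0.0292 and 0.0440), and without WT 1 Perp passed as higher (0.0190).

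The 5 repair genes split. Ddb2, which recognizes ultraviolet damage, had 8.8, 10.1 and 9.26 CPM in the WT libraries and 12.8, 11.9 and 12.5 CPM in the KO libraries and rose (log2 0.39, SE 0.08, adjusted p = 0.00244); its locus overlaps Acp2 on the opposite strand by 652 exonic bases, and whether counting used strand is not given. Rrm2b, the p53-induced subunit of ribonucleotide reductase, had 15.3, 17 and 15.5 CPM in the WT libraries and 11.6, 13.3 and 11.7 CPM in the KO libraries and fell (log2 -0.40, SE 0.08, adjusted p = 0.00178). Xpc, a partner of Ddb2 in damage recognition, fell slightly (log2 -0.19, adjusted p = 0.00956). The translesion polymerase Polk (log2 -0.08, adjusted p = 0.198) and the endonuclease Ercc5 (log2 -0.01, adjusted p = 0.908) did not pass. The groups of Ddb2 and of Rrm2b did not overlap.

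All 4 arrest and division genes were called, 2 in each direction. Btg2, which restrains proliferation, had 222, 222 and 216 CPM in the WT libraries and 168, 161 and 168 CPM in the KO libraries (log2 -0.43, SE 0.04, adjusted p = 2.99e-06). The polo-like kinase Plk2 had 244, 265 and 288 CPM in the WT libraries and 149.5, 172 and 144 CPM in the KO libraries (log2 -0.79, SE 0.07, adjusted p = 3.72e-06). Both were lower in every KO library. The related kinase Plk3 rose, with 19.2, 19.3 and 17.8 CPM in the WT libraries and 23.5, 27.6 and 29.4 CPM in the KO libraries (log2 0.50, SE 0.08, adjusted p = 0.000379), and its locus shares 84 exonic bases with Tctex1d4 on the opposite strand. Ckap2, a protein of the mitotic spindle, had 8.32, 4.26 and 4.85 CPM in the WT libraries and 15.4, 10.3 and 15.3 CPM in the KO libraries and rose (log2 1.21, SE 0.23, adjusted p = 0.000786), with WT 1 above the other WT libraries but below every KO library. Beside this, all 20 genes of a mitosis list rose in KO total RNA (median log2 1.68), their summed level being 145.7 to 254 CPM in WT and 433.8 to 669.3 CPM in KO, and their part in the Ckap2 result was not tested.

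Of the stress and metabolism genes 2 rose, 2 fell and 2 did not pass. Steap3, an iron reductase, had 17.8, 19.1 and 17.5 CPM in the WT libraries and 6.84, 8.67 and 6.5 CPM in the KO libraries, the largest fall of the 32 members (log2 -1.32, SE 0.11, adjusted p = 1.34e-06). Dram1, a lysosomal protein of autophagy, had 72, 69.3 and 69 CPM in the WT libraries and 106, 98.2 and 105 CPM in the KO libraries and rose (log2 0.54, SE 0.05, adjusted p = 1.53e-06). Neither gene's groups overlapped. Sesn1, a sestrin that restrains mTORC1, rose (log2 0.41, adjusted p = 0.000287) and Zmat3, an RNA-binding zinc finger protein, fell (log2 -0.29, adjusted p = 0.00146). Fdxr, a mitochondrial electron carrier enzyme (log2 0.07, adjusted p = 0.551), and the secreted stress cytokine Gdf15 (log2 0.45, adjusted p = 0.375) did not pass, Gdf15 lying under 1 CPM in all 6 libraries. The 10 luminal urothelial markers all rose in KO (median log2 1.20, summed level 2035 to 2107 CPM in WT and 2890 to 3224 CPM in KO). Of the 8 basal markers 3 rose, 2 fell and 3 did not pass (median log2 0.05). Cd68 carried a rise of the immune list from 9.81 to 11.4 CPM up to 21.8 to 24.4 CPM. The smooth muscle list, nearly all Acta2, had summed levels of 5.88 to 6.63 CPM in WT and 19.7 to 21.5 CPM in KO, and in polysomes 5.396 to 5.998 CPM and 15.3 to 19.8 CPM. The fibroblast list had 3.77 to 4.77 CPM in WT and 1.93 to 2.31 CPM in KO, with Col1a2 and Lum at 0 in all 6 libraries. The part of these lists in the results on p53 genes was not tested, and in bulk RNA fewer cells of a type and less RNA per cell cannot be told apart.

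In polysomes, the fraction of mRNAs that carry several ribosomes, 6 members were higher and 9 lower in KO, against 28.8% of all genes called. In subpolysomes, which hold mRNAs with few or no ribosomes, 6 were higher and 5 lower in the libraries labelled KO, against 22% of all genes. Groups did not overlap for 6 higher and 10 lower members in polysomes (42.5% of all genes) and for 9 and 9 in subpolysomes (36.8%). The members' median log2 changes were -0.10 and -0.09, against 0.00628 and 0.00563 over all genes. Called the same way in total RNA and in both fractions were 5 higher genes (Fas, Ddb2, Plk3, Ckap2 and Dram1) and 5 lower ones (Tnfrsf10b, Eda2r, Btg2, Plk2 and Steap3). That is 31.2% of the members, against 16.6% of the 12431 genes tested in all 3 kinds of RNA. No member was called in opposite directions, and 9 members were called in none. Of these 10 genes, 4 (Fas, Eda2r, Btg2 and Plk2) passed in each of 18 runs that left out 1 library, and Ckap2 passed in all but the run without the subpolysome library labelled WT 2 (adjusted p = 0.0542). Ddb2 is also one of those whose total RNA call was lost in the fit of all 18 primary libraries (adjusted p = 0.0583).

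The apoptosis receptors kept the directions of total RNA. Eda2r had 22.7, 34.5 and 32.3 CPM in the WT libraries and 10.7, 13.8 and 10.6 CPM in the KO libraries of polysomes (log2 -1.36, SE 0.17, adjusted p = 9.89e-06). In subpolysomes it had 20.2, 18.3 and 22.4 CPM in the libraries labelled WT and 8.59, 7.91 and 9.54 CPM in those labelled KO (log2 -1.23, SE 0.17, adjusted p = 4.21e-06). It was lower in every KO library of both fractions, without overlap. Fas had 3.8, 4.03 and 4.43 CPM in the WT libraries and 6.92, 6.38 and 8.09 CPM in the KO libraries of polysomes (log2 0.79, SE 0.16, adjusted p = 0.00106). Subpolysome levels of Fas were 3.11, 3.23 and 2.3 CPM in the libraries labelled WT and 6.46, 7.17 and 8.59 CPM in those labelled KO (log2 1.36, SE 0.28, adjusted p = 0.00062). Fas was higher in every KO library of both fractions. Tnfrsf10b had 26.8, 27.1 and 25.6 CPM in the WT libraries and 15.7, 16.8 and 14.9 CPM in the KO libraries of polysomes (log2 -0.75, SE 0.13, adjusted p = 0.000269). Subpolysome levels of Tnfrsf10b were 16.6, 14.9 and 11.1 CPM in the libraries labelled WT and 10.0, 9.74 and 8.52 CPM in those labelled KO (log2 -0.59, SE 0.19, adjusted p = 0.0247). The TRAIL receptor was lower without overlap in both fractions, but its subpolysome call was lost without the library labelled WT 1, WT 2 or KO 3 (adjusted p 0.133, 0.0951 and 0.0840).

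The other 2 apoptosis genes called were called in 1 fraction each. Trp53inp1 had 209, 305 and 313 CPM in the WT libraries and 186, 199.9 and 142 CPM in the KO libraries of polysomes and fell there (log2 -0.65, SE 0.17, adjusted p = 0.00777), while in subpolysomes its groups overlapped (log2 -0.11, adjusted p = 0.569). Pmaip1 had 90.5, 97 and 78.5 CPM in the libraries labelled WT and 109, 136 and 102 CPM in those labelled KO of subpolysomes and passed as higher there (log2 0.38, SE 0.12, adjusted p = 0.022). In polysomes its groups overlapped (log2 -0.22, adjusted p = 0.311). The Pmaip1 call was lost without the library labelled KO 2 or WT 3 (adjusted p 0.174 and 0.121). The remaining 7 apoptosis members did not pass in either fraction, with log2 changes from -0.26 (Apaf1 in subpolysomes) to 0.08 (Phlda3 in subpolysomes), although Phlda3 passed as lower in polysomes without KO 3 (log2 -0.36, adjusted p = 0.0457).

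Among arrest genes, Plk2 had 100.5, 98 and 96.6 CPM in the WT libraries and 65.4, 67.2 and 47.5 CPM in the KO libraries of polysomes (log2 -0.72, SE 0.15, adjusted p = 0.00127). Subpolysome levels of Plk2 were 151, 127 and 121 CPM in the libraries labelled WT and 88.3, 96.8 and 74.1 CPM in those labelled KO (log2 -0.62, SE 0.12, adjusted p = 0.000331). It was lower without overlap in both, as was Btg2 (log2 -0.51, adjusted p = 0.00455 in polysomes and log2 -0.51, adjusted p = 0.000568 in subpolysomes). Ckap2 had 4.08, 3.45 and 3.1 CPM in the WT libraries and 10.5, 6.64 and 7.09 CPM in the KO libraries of polysomes (log2 1.18, SE 0.20, adjusted p = 0.000213). Subpolysome levels of Ckap2 were 6.4, 1.8 and 3.81 CPM in the libraries labelled WT and 8.75, 7.69 and 10.6 CPM in those labelled KO (log2 1.17, SE 0.31, adjusted p = 0.00804). Ckap2 was higher in every KO library of both fractions, and so were 20 of 20 mitosis genes by the test in polysomes and 19 of 20 in subpolysomes. Plk3 had 18.9, 15.4 and 15.9 CPM in the libraries labelled WT and 25.9, 31.9 and 32.2 CPM in those labelled KO of subpolysomes (log2 0.84, SE 0.15, adjusted p = 0.000106), without overlap. In polysomes its groups overlapped (log2 0.54, adjusted p = 0.0246), and the call was lost without WT 2, KO 2 or WT 3 (adjusted p 0.121, 0.103 and 0.0681).

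Of the repair genes, Ddb2 had 7.96, 11 and 10.3 CPM in the libraries labelled WT and 15.9, 14.3 and 14.3 CPM in those labelled KO of subpolysomes and was higher without overlap (log2 0.61, SE 0.18, adjusted p = 0.0144). It rose in polysomes as well (log2 0.47, adjusted p = 0.0279). Its subpolysome call was lost without the library labelled WT 1 or KO 1 (adjusted p 0.0787 and 0.0606), and its polysome call without WT 1, KO 1 or WT 3 (0.0747, 0.0936 and 0.126). Rrm2b fell in polysomes (log2 -0.59, adjusted p = 0.00745; 0.0525 without WT 2) and did not pass in subpolysomes (log2 0.03, adjusted p = 0.96). Xpc, Polk and Ercc5 did not pass in either fraction.

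Steap3 had 9.77, 10.5 and 9.55 CPM in the WT libraries and 3.42, 5.62 and 4.34 CPM in the KO libraries of polysomes (log2 -1.17, SE 0.18, adjusted p = 8.9e-05). In subpolysomes it had 6.19, 4.76 and 5.38 CPM in the libraries labelled WT and 1.43, 3.97 and 2.22 CPM in those labelled KO (log2 -1.09, SE 0.35, adjusted p = 0.0251). It was lower without overlap in both, with the subpolysome call lost without the library labelled WT 1, KO 1, WT 3 or KO 3 (adjusted p 0.0551 to 0.114). Dram1 rose in polysomes (log2 0.41, adjusted p = 0.0217) and in subpolysomes (log2 0.51, adjusted p = 0.00768); the first call was lost without KO 1, WT 2, KO 2 or WT 3 (0.0569 to 0.117) and the second without the library labelled WT 3 (0.0673). Zmat3 fell in polysomes (log2 -0.41, adjusted p = 0.022), a call lost without WT 1, WT 2, KO 2 or WT 3 (0.0521 to 0.0732). Sesn1 did not pass in polysomes (log2 0.26, adjusted p = 0.154) or in subpolysomes (log2 0.52, adjusted p = 0.0581; 0.0339 without the library labelled WT 1).

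Among the regulators, Ppm1d had 11.1, 10.4 and 9.8 CPM in the WT libraries and 16.6, 16.2 and 15.5 CPM in the KO libraries of polysomes and rose without overlap (log2 0.62, SE 0.14, adjusted p = 0.00223). In subpolysomes it did not pass (log2 0.40, adjusted p = 0.108). Mdm2 had 71.3, 76.1 and 63.7 CPM in the WT libraries and 48.3, 51.5 and 39.9 CPM in the KO libraries of polysomes and fell (log2 -0.60, SE 0.14, adjusted p = 0.00335). In subpolysomes Mdm2 had 150.5, 134 and 130.0 CPM in the libraries labelled WT and 116, 118 and 109 CPM in those labelled KO, which did not overlap, but did not pass (log2 -0.27, adjusted p = 0.0745). There Mdm2 passed as lower in DESeq2 (adjusted p = 0.0335), with the replicate block (0.0358) and in the fit of all 18 primary libraries (0.0370). Trp53 had 115, 100 and 109.5 CPM in the WT libraries and 89.9, 102 and 104 CPM in the KO libraries of polysomes, with overlap (log2 -0.14, adjusted p = 0.443). In subpolysomes it had 65, 62.6 and 56.8 CPM in the libraries labelled WT and 53.5, 44.5 and 52.1 CPM in those labelled KO, without overlap and without a call (log2 -0.29, adjusted p = 0.0754). Mdm4 did not pass in polysomes (log2 -0.06, adjusted p = 0.808) or subpolysomes (log2 -0.16, adjusted p = 0.304), nor did Ccng1 (log2 -0.36, adjusted p = 0.0661 and log2 -0.20, adjusted p = 0.286). With the replicate block Ccng1 passed as lower in polysomes (log2 -0.36, adjusted p = 0.0162), as it did without WT 1 (0.0221). It also passed as lower there in DESeq2 (adjusted p = 0.0378) and in the fit of all 18 primary libraries (0.0144).

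**Figure D2:**
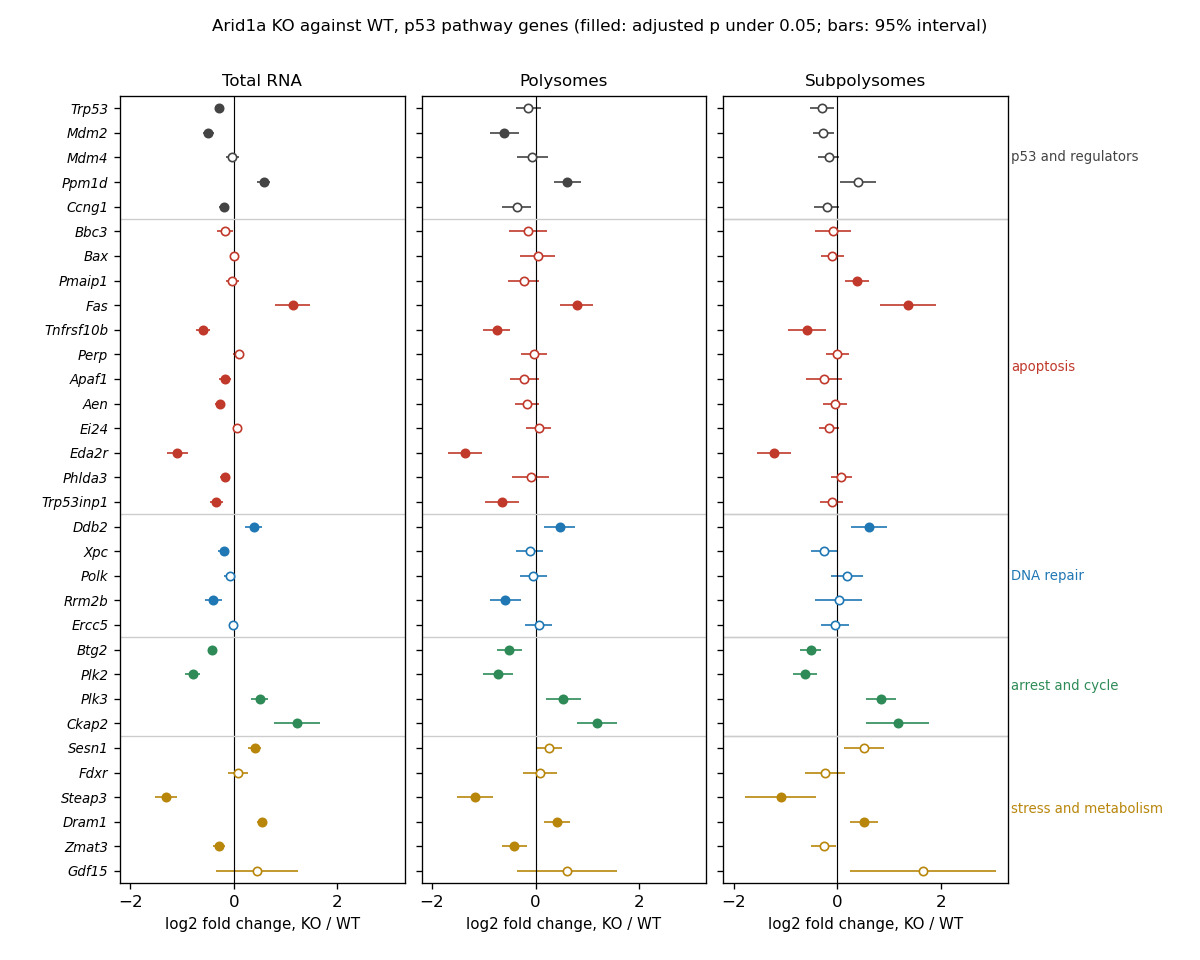
Log2 fold change of KO over WT with its 95% interval for the 32 p53 pathway genes in total RNA, polysomes and subpolysomes (3 libraries per genotype in each). Filled points passed the test; Eda2r, Steap3, Plk2, Btg2 and Tnfrsf10b are filled below 0 and Fas, Ckap2, Dram1, Ddb2 and Plk3 above 0 in all 3 panels.

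A genotype-by-fraction term over the 12 gradient libraries tested whether the polysome to subpolysome ratio of these mRNAs changed with KO. In edgeR 0 of 32 members passed, where 1 of 13392 genes did (0.00747%), and 3 members had an unadjusted p under 0.05, where 5.66% of all genes had. DESeq2 called 0 members as well and 12 genes in all. The 3 members were Pmaip1 (log2 -0.60, SE 0.21, unadjusted p = 0.00812, adjusted p = 0.844), Trp53inp1 (log2 -0.53, SE 0.22, unadjusted p = 0.0273, adjusted p = 0.877) and Rrm2b (log2 -0.61, SE 0.27, unadjusted p = 0.0324, adjusted p = 0.877), all with a lower ratio in KO. For Trp53 the change of the ratio was 0.16 on the log2 scale (95% interval -0.15 to 0.48), for Mdm2 -0.33 (95% interval -0.65 to 0.00) and for Mdm4 0.11 (95% interval -0.25 to 0.47).

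Within each genotype the members differed widely in their place in the gradient. Taken relative to other mRNAs, 13 were higher and 12 lower in polysomes than in subpolysomes in WT, against 63.7% of all genes called (32.8% higher and 30.9% lower). In KO 11 were higher and 14 lower, against 61.6% (31.7% and 29.9%). The fractions did not overlap for 15 higher and 13 lower members in WT (35.8% and 33% of all genes) and for 11 and 14 in KO (33.3% and 31.4%). In both genotypes 11 were higher and 12 lower, 4 were called in 1 genotype only and 5 in neither. The split depends on the scaling: by library totals alone all genes shifted toward polysomes by a median log2 of 0.83 in WT and 0.89 in KO, and the share of higher calls among all genes went from 51.6% to 83.1% in WT and from 51.4% to 85.9% in KO. The members then split 20 higher and 2 lower in WT and 21 higher and 5 lower in KO. Under both scalings and in both genotypes 11 members were called higher and 2, Mdm4 and Ei24, lower. The 11 were Trp53, Pmaip1, Tnfrsf10b, Aen, Eda2r, Phlda3, Rrm2b, Sesn1, Steap3, Dram1 and Zmat3.

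The regulators fell on both sides. Trp53 had 115, 100 and 109.5 CPM in WT polysomes and 65, 62.6 and 56.8 CPM in labelled WT subpolysomes (log2 0.82, SE 0.12, adjusted p = 2.62e-06; log2 0.98, adjusted p = 2.49e-07 in KO). Mdm4 had 24.2, 32.9 and 28.1 CPM in WT polysomes and 108, 97.2 and 113 CPM in subpolysomes (log2 -1.90, SE 0.13, adjusted p = 9.93e-11; log2 -1.79, adjusted p = 2.78e-10 in KO). So Trp53 was polysome-rich and Mdm4 subpolysome-rich, without overlap in either genotype. Mdm2 had 71.3, 76.1 and 63.7 CPM and 150.5, 134 and 130.0 CPM, lower in polysomes (log2 -0.97, SE 0.12, adjusted p = 3.57e-07; log2 -1.30, adjusted p = 7.14e-09 in KO), although by library totals it passed only in KO (log2 -0.41). Ccng1 was lower in both (log2 -0.71, adjusted p = 0.000178 and log2 -0.86, adjusted p = 2.11e-05) but stood at 0.11 and 0.02 by library totals. Ppm1d passed in neither (log2 -0.20, adjusted p = 0.266 and log2 0.03, adjusted p = 0.878). By library totals, however, Ppm1d passed as higher in WT (log2 0.63, adjusted p = 0.00285) and in KO (log2 0.92, adjusted p = 5.05e-05).

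Of the apoptosis genes, 7 were higher and 2 lower in WT polysomes, and 5 and 2 in KO. Phlda3 had 348, 303 and 409 CPM in WT polysomes and 117, 126 and 117 CPM in subpolysomes (log2 1.56, SE 0.17, adjusted p = 8.01e-08; log2 1.41, adjusted p = 3.55e-07 in KO). Pmaip1 had 227, 295 and 252 CPM and 90.5, 97 and 78.5 CPM (log2 1.54, SE 0.15, adjusted p = 1.17e-08; log2 0.94, adjusted p = 9.82e-06 in KO). Both were polysome-rich without overlap. Tnfrsf10b (0.90 in WT and 0.74 in KO), Aen (0.69 and 0.58) and Eda2r (0.55 and 0.43) were higher in both genotypes on the log2 scale. The Eda2r call in KO was lost without the subpolysome library labelled KO 1 or KO 2 or polysome KO 2 (adjusted p 0.0635, 0.0909 and 0.163). Ei24, in contrast, had 121, 139 and 142 CPM in WT polysomes and 359.6, 374 and 369.8 CPM in subpolysomes (log2 -1.46, SE 0.11, adjusted p = 3.98e-10; log2 -1.22, adjusted p = 6e-09 in KO). Bax was lower in polysomes in both (-0.84 and -0.69), though not by library totals (-0.02 and 0.18). Fas (0.50) and Trp53inp1 (0.66) passed in WT and not in KO (-0.05 and 0.13), and the difference itself did not pass in the interaction test. By library totals Fas and Trp53inp1 passed as higher in WT and also in KO (0.83, adjusted p = 0.0012 and 1.02, adjusted p = 4.12e-06 in KO). The WT call of Fas was lost without polysome KO 1, WT 2 or WT 3 or the subpolysome library labelled WT 3 (adjusted p 0.0507 to 0.116). Bbc3, Perp and Apaf1 passed in neither, but Apaf1 passed as higher in KO with the replicate block (log2 0.35, adjusted p = 0.0260), without the subpolysome library labelled KO 1 (0.00666, and 0.0452 in WT) or without polysome KO 3 (0.0292). In the fit of all 18 primary libraries Apaf1 passed as higher in WT (0.0278) and KO (0.0200), and Perp in WT (0.0218). By library totals Bbc3, Perp and Apaf1 each passed as higher in both genotypes.

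In the repair group Rrm2b had 18, 24.1 and 22.8 CPM in WT polysomes and 7.31, 7.16 and 8.92 CPM in subpolysomes (log2 1.47, SE 0.19, adjusted p = 8.18e-07; log2 0.86, adjusted p = 0.00047 in KO). Rrm2b was the 1 repair gene called higher, without overlap in either genotype. Ddb2 (-0.64 and -0.77), Xpc (-0.83 and -0.67) and Ercc5 (-0.45 and -0.34) were lower in both genotypes and Polk in KO only (-0.44), but by library totals Ercc5 and Polk passed as higher and Ddb2 and Xpc did not pass. The Ercc5 call was lost in WT without the subpolysome library labelled WT 2 (adjusted p = 0.0529) and in KO without the one labelled KO 1 or KO 2 or polysome KO 2 or KO 3 (0.0530 to 0.234). The Polk call in KO was lost without the subpolysome library labelled KO 1 or KO 2 or polysome KO 3 (0.0546 to 0.0759). No arrest gene was called higher. Plk3 had 9.51, 6.83 and 7.68 CPM and 18.9, 15.4 and 15.9 CPM (log2 -1.06, SE 0.17, adjusted p = 1.02e-05; log2 -1.35, adjusted p = 4.1e-07 in KO), Btg2 (-0.69 and -0.68) and Plk2 (-0.44 and -0.52) were also lower, and Ckap2 passed in neither. The WT call of Plk2 was lost without the subpolysome library labelled WT 1 (adjusted p = 0.0882). By library totals Plk2 turned to higher (0.38 and 0.37) and Btg2 stood at 0.14 and 0.21.

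Among stress and metabolism genes Zmat3 had 134, 121 and 125 CPM in WT polysomes and 66, 56.2 and 53.1 CPM in subpolysomes (log2 1.12, SE 0.12, adjusted p = 8.13e-08; log2 0.98, adjusted p = 5.51e-07 in KO). Dram1 had 68.9, 67.4 and 63.2 CPM and 32.1, 36.1 and 24.1 CPM (log2 1.11, SE 0.13, adjusted p = 2.33e-07; log2 1.02, adjusted p = 8.05e-07 in KO). Both were polysome-rich without overlap. Steap3 (0.87 and 0.81) and Sesn1 (0.66 and 0.42) were higher too, while Fdxr was lower (-0.94 and -0.61). In KO the Steap3 call was lost without polysome KO 2 or the subpolysome library labelled KO 1 (adjusted p 0.0872 and 0.0932). The Sesn1 call was lost without polysome KO 2 or the library labelled KO 2 (0.0585 and 0.0606), and the Fdxr call without polysome KO 1 or the library labelled KO 2 (0.0730 and 0.0579). Gdf15 had at most 1.72 CPM in the 12 libraries and was called lower in KO (log2 -2.49, adjusted p = 0.00164). In WT it was lower without overlap but did not pass (log2 -1.43, adjusted p = 0.0582, and 0.424 by library totals). It passed as lower in WT in DESeq2 (0.0183) and in the fit of all 18 primary libraries (0.0314). The difference between genotypes did not pass in the interaction test (log2 -1.06, adjusted p = 0.941).

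**Figure D3:**
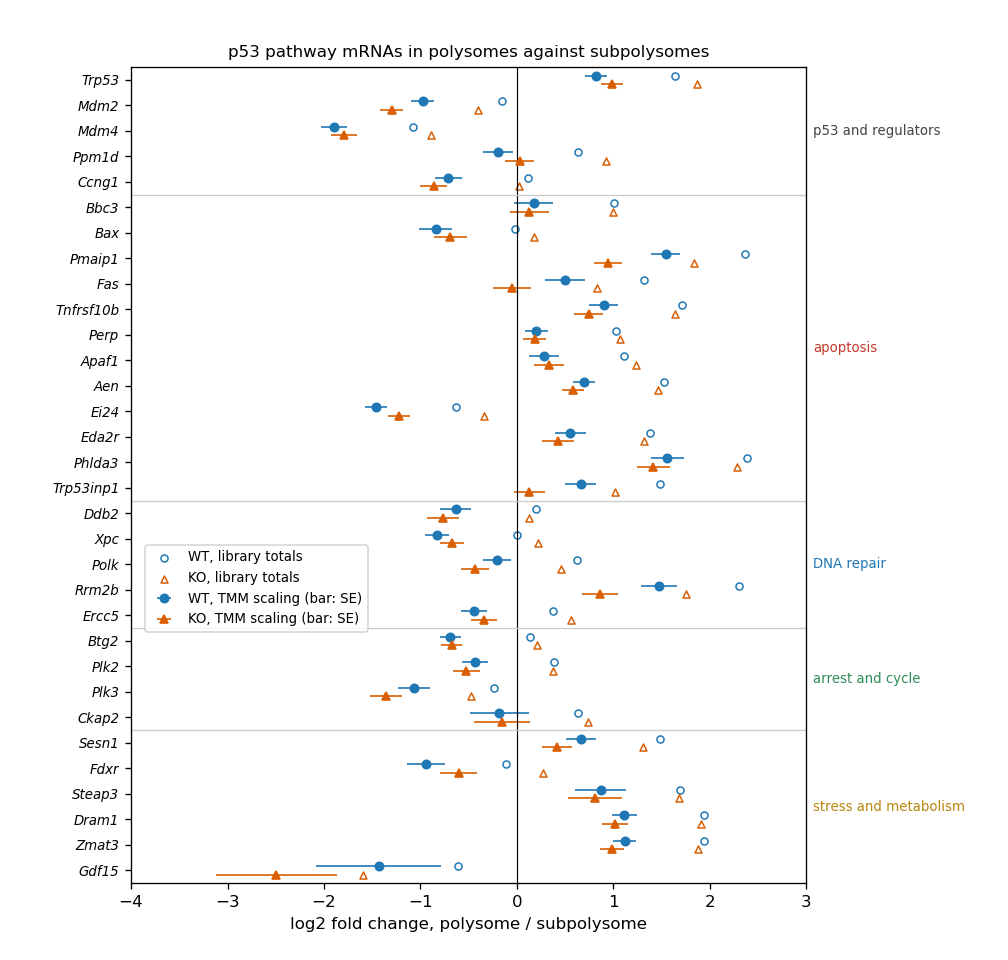
Log2 fold change of polysome over subpolysome for the 32 p53 pathway genes in WT (circles) and KO (triangles), filled with SE bars for TMM scaling and open for library totals. Trp53, Phlda3, Pmaip1, Zmat3, Dram1 and Rrm2b lie right of 0, and Mdm4 and Ei24 left of 0, under both scalings; most repair and arrest genes change side.

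In the bladder cancer organoids 0 of 31 members tested passed between the libraries labelled KO and labelled WT, and 0 of 12681 genes did (0%). Gdf15 was too low to be tested. By DESeq2 11 genes passed in all and 0 members. An unadjusted p under 0.05 was found for 2 members and for 96 genes in all (0.757%). The first was Fas, with 0.238 and 0.451 CPM in the libraries labelled WT and 2.83 and 1.14 CPM in those labelled KO (log2 2.52, SE 0.79, unadjusted p = 0.0338, adjusted p = 1). The other was Trp53inp1, with 41.8 and 24.1 CPM in the libraries labelled WT and 16.4 and 9.88 CPM in those labelled KO (log2 -1.32, SE 0.43, unadjusted p = 0.0365, adjusted p = 1). Neither gene's groups overlapped, as for 3 higher and 4 lower members in all (10.1% and 10.6% of all genes), and 2 libraries a group with Arid1a against the labels limit what this comparison can show. Trp53 had 154 and 160.4 CPM in the libraries labelled WT and 144 and 145 CPM in those labelled KO (95% interval -0.36 to 0.13), and Mdm2 55.6 and 41.9 CPM in the libraries labelled WT and 45 and 51.4 CPM in those labelled KO (95% interval -0.43 to 0.41). Mdm4 had 62.1 and 55.3 CPM in the libraries labelled WT and 49.8 and 69.1 CPM in those labelled KO (95% interval -0.42 to 0.47). Some members spread widely within a label: Plk2 had 105 and 48.7 CPM in the libraries labelled WT and 51.5 and 226 CPM in those labelled KO. The labelled KO change of the cancer organoids was also set against the KO change of the primary ones over the 10 total RNA libraries. Since Arid1a did not follow the cancer labels, this does not compare Arid1a loss between the 2 sets. In it 0 of 32 members differed, where 448 genes did (3.13%), and 8 members had an unadjusted p under 0.05, as had 20.3% of all genes. The smallest was that of Sesn1, whose labelled KO change was lower in cancer by a log2 of -1.31 (SE 0.28, adjusted p = 0.0513).

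Set against the primary organoids, the cancer organoids held less of most p53 pathway mRNAs. In total RNA 4 members were higher and 22 lower, against 77.8% of all genes called (38.8% higher and 39% lower), with a median log2 of -0.93 against -0.03 over all genes. The libraries of 17 lower members did not overlap, against 32.6% of all genes, and those of 2 higher ones did not, against 32.3%. Origin, any batch and processing go together with the sets and cannot be told apart, and the test compares 4 libraries with 6.

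Of 5 regulators 3 were lower and none higher. Trp53 lay at 144 to 160.4 CPM in the cancer libraries and 205 to 269.5 CPM in the primary ones (log2 -0.66, SE 0.05, adjusted p = 3.15e-06). Mdm2 lay at 41.9 to 55.6 CPM against 83.9 to 129.7 CPM (log2 -1.13, SE 0.09, adjusted p = 8.72e-06). Ccng1 lay at 94.5 to 161 CPM against 409 to 500.2 CPM (log2 -2.02, SE 0.14, adjusted p = 3.4e-06). The sets of these 3 genes did not overlap. Mdm4 (log2 -0.10, adjusted p = 0.397) and Ppm1d (log2 -0.25, adjusted p = 0.0983) did not pass, but without the library labelled KO 2 both passed as lower (adjusted p 0.0282 and 0.0134), Ppm1d also without the one labelled WT 1 (0.0191).

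Of the apoptosis genes 8 were lower and 2 higher. Bbc3 lay at 1.37 to 2.42 CPM in cancer and 20.6 to 25.4 CPM in primary libraries (log2 -3.73, SE 0.19, adjusted p = 4.9e-07). Eda2r lay at 0.228 to 2.79 CPM against 8.15 to 21.6 CPM (log2 -3.75, SE 0.48, adjusted p = 0.000124). Pmaip1 lay at 18.6 to 52.5 CPM against 188 to 225 CPM (log2 -2.74, SE 0.26, adjusted p = 1.85e-05). Trp53inp1 lay at 9.88 to 41.8 CPM against 142 to 197 CPM (log2 -3.00, SE 0.21, adjusted p = 2.83e-06). These 4 did not overlap, so PUMA and Noxa mRNAs, which did not pass between genotypes in total RNA, were lower in every cancer library than in every primary one. Fas lay at 0.238 to 2.83 CPM against 1.91 to 5.95 CPM, with overlap (log2 -2.08, SE 0.33, adjusted p = 0.00047). Bax (log2 -0.66, adjusted p = 0.00129), Ei24 (log2 -1.16, adjusted p = 9.59e-07) and Apaf1 (log2 -0.46, adjusted p = 0.0119) were lower. Tnfrsf10b was higher (log2 0.28, adjusted p = 0.014), as was Perp (log2 0.30, adjusted p = 0.0495), both with overlap. Tnfrsf10b lay at 32.5 to 40.9 CPM in cancer, 34.7 to 37.9 CPM in primary WT and 22.3 to 25.7 CPM in primary KO libraries. The cancer libraries thus lay above primary KO but not above primary WT. The Perp call was lost in 9 of the 10 runs that left out 1 library (adjusted p 0.0576 to 0.140), all but that without the library labelled WT 1. Aen (log2 0.14, adjusted p = 0.104) and Phlda3 (log2 0.27, adjusted p = 0.106) did not pass, but without the library labelled WT 1 both passed as higher (0.00345 and 0.0139), Phlda3 also without the one labelled KO 2 (0.0242).

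Of 5 repair genes 4 were lower: Ddb2 (-1.44), Polk (-1.35), Xpc (-1.17) and Ercc5 (-0.45), while Rrm2b did not pass (log2 -0.12, adjusted p = 0.492). Among arrest genes, Btg2 lay at 28.2 to 50.8 CPM against 161 to 222 CPM (log2 -2.35, SE 0.14, adjusted p = 1.28e-06). Ckap2 went the other way, at 81.4 to 91.4 CPM in cancer and 4.26 to 15.4 CPM in primary libraries (log2 3.31, SE 0.21, adjusted p = 1.69e-06). Beside it all 20 mitosis genes were higher in cancer (median log2 3.63), and their part in the Ckap2 result was not tested. Plk3 was lower (log2 -0.88, adjusted p = 0.00106), and so was Plk2 (log2 -0.98, adjusted p = 0.0479), a call lost without any 1 of the 6 primary libraries or the one labelled WT 2 (adjusted p 0.0693 to 0.137). Of the stress genes Sesn1 was higher at 22.8 to 59.7 CPM against 13.8 to 19 CPM (log2 1.12, SE 0.14, adjusted p = 0.000109), without overlap. Zmat3 (-1.80), Steap3 (-1.35), Gdf15 (-3.46) and Dram1 (-0.59) were lower, and Fdxr did not pass (log2 -0.21, adjusted p = 0.257, and 0.00636 without the library labelled KO 2). The Gdf15 value lies near the floor, with 1 and 1 counts in the cancer libraries labelled WT, 4 and 0 in those labelled KO, and 16 to 37 in the primary ones. The Dram1 call was lost without any 1 of the 6 primary libraries or the one labelled WT 1 (adjusted p 0.0701 to 0.139). The luminal urothelial markers fell with them, 9 of 10 called lower, from 2035 to 3224 CPM summed in primary libraries to 79.05 to 240.0 CPM in cancer, with Upk2, Upk3a and Upk3b at 0 in all 4. Of 8 basal markers 5 were higher and 1 lower (median log2 1.17). The part of both lists in the p53 results was not tested.

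**Figure D4:**
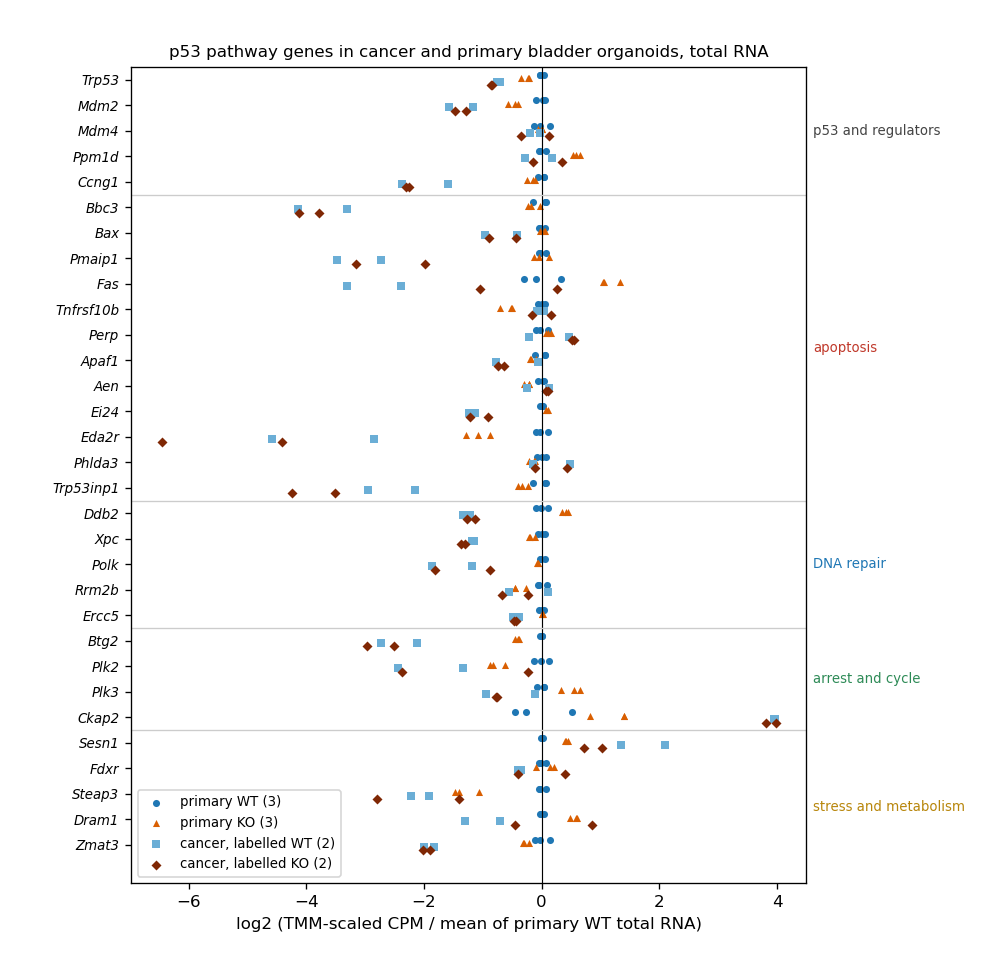
Log2 ratio of each library's TMM-scaled CPM to the mean of the 3 primary WT libraries, total RNA, for 31 p53 pathway genes (Gdf15, with a cancer library at 0, is left out); 3 primary WT, 3 primary KO, 2 cancer libraries labelled WT and 2 labelled KO. Bbc3, Eda2r, Trp53inp1, Pmaip1, Btg2 and Ccng1 lie left of every primary library, and Ckap2 and Sesn1 right.

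The wider pathway was followed in a list of 47 other targets and 21 upstream genes tested. In KO total RNA 9 other targets were higher and 22 lower (median log2 -0.13), and 8 upstream genes higher and 5 lower (median 0.05), where 53.2% of all genes were called. Cdkn1a, which encodes the cell cycle inhibitor p21 and is the best known arrest target, had 553, 589.6 and 558 CPM in the WT libraries and 381, 393 and 371 CPM in the KO libraries and fell without overlap (log2 -0.59, SE 0.04, adjusted p = 3.99e-07). It was also lower in polysomes (log2 -0.73, adjusted p = 0.000378) and subpolysomes (log2 -0.44, adjusted p = 0.00274). Cdkn2a, whose Arf product restrains Mdm2, had 151, 158 and 164 CPM in the WT libraries and 60.5, 71.4 and 52.8 CPM in the KO libraries (log2 -1.37, SE 0.09, adjusted p = 1.7e-07); the counts do not separate Arf from p16. The other changes of at least 1 on the log2 scale in total RNA were falls of the kinase Ak1 (-1.94), the cytokine Lif (-1.69) and Thbs1 (-1.64) and rises of the checkpoint kinase Chek1 (1.64) and the p53 relative Trp73 (1.15). In polysomes the changes of this size were those of Ak1 (-1.97), Lif (-1.80), Chek1 (1.53), Thbs1 (-1.52), Cdkn2a (-1.51) and Trp73 (1.34). In subpolysomes they were those of Ak1 (-1.87), Thbs1 (-1.61), Lif (-1.49), Cdkn2a (-1.41), Chek1 (1.31) and Fancc (-1.09).

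Across the gradient the largest values of the wider list were those of Pcna (2.95 in WT and 3.06 in KO), Rps27l (-3.00 and -2.76), Ptp4a3 (-3.00 and -2.49) and Cd82 (1.97 and 2.00), log2 polysome over subpolysome relative to other mRNAs. Triap1 (-1.92) came next in WT, and Cycs (1.78) and Psrc1 (-1.73) in KO. In cancer against primary organoids 8 other targets were higher and 29 lower (median log2 -1.09) and 14 upstream genes higher and 3 lower (median 0.48), where 77.8% of all genes were called. Cdkn1a lay at 31.9 to 53.8 CPM in cancer against 371 to 589.6 CPM (log2 -3.40, SE 0.17, adjusted p = 4.22e-07). Dcxr (-5.75), Ak1 (-5.63) and Cd82 (-3.50) were lower and Chek1 higher (4.03), and Sulf2, at 72.6 to 93.3 CPM in primary libraries, had no more than 0.0213 CPM in any cancer library.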

How the data were processed

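Per the submitters' processing notes, the authors counted reads per gene with HTSeq on mm10, naming Bowtie for the 18 primary libraries. The deposited values are raw counts; the notes name no tool versions, annotation or strand setting, and no aligner for the cancer libraries. Counts were fitted in edgeR 4.0.16 (R 4.3.3): TMM factors, filterByExpr, quasi-likelihood test, Benjamini-Hochberg adjustment over all genes, threshold 0.05, with each comparison on its own libraries (12 for gradient contrasts, 10 for cancer against primary). Intervals are 1.96 SE wide on each side, a normal quantile. With this few libraries they are narrower than 95% intervals of the quasi-likelihood test would be. That of Bbc3 in total RNA, -0.32 to -0.01, leaves out 0 at an unadjusted p of 0.0606 in that test. All 32 members are named. Values per library are given for Trp53, Mdm2, Mdm4, the members with the largest called changes (up to 8 a comparison) and the 2 of each role with the smallest p. Other pathway genes were Cdkn1a, Cdkn2a and up to 6 called at an absolute log2 of at least 1; one such gene is not reported here. The members and lists were chosen with earlier results of these data known. Same-numbered libraries deviated together, with every r above a threshold of 0.1, for WT and KO polysomes (r 0.25, 0.27 and 0.47) and for the 2 fractions of WT (0.39, 0.11 and 0.25) and KO (0.23, 0.14 and 0.29). This did not hold in every pair of the other groups compared, so the replicate block was read beside the polysome and gradient results. DESeq2 1.42.0, other scalings, no filter, a fit of all 18 libraries and leaving out each library were alternatives. The fits were also run on simulated counts with known changes of at least 1 on the log2 scale. Smaller changes, pairing of libraries and the scaling between fractions were not covered by that run. Coordinates are from GENCODE M21 and RefSeq (GRCm38).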

Additional observations from a re-analysis of the deposited data

How the results depend on the processing

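By library totals alone, chosen after seeing the data, polysome against subpolysome gave 20 higher and 2 lower members in WT and 21 and 5 in KO. Members then turned to positive log2 values: in WT Ppm1d 0.63, Ccng1 0.11, Ddb2 0.20, Polk 0.62, Ercc5 0.37, Btg2 0.14, Plk2 0.38 and Ckap2 0.63; in KO Ccng1 0.022, Bax 0.18, Fas 0.83, Ddb2 0.12, Xpc 0.21, Polk 0.45, Ercc5 0.56, Btg2 0.21, Plk2 0.37, Ckap2 0.74 and Fdxr 0.27. This scaling also ended the calls of Apaf1 in total RNA (adjusted p = 0.0528), Zmat3 in polysomes (0.0561) and Pmaip1 in subpolysomes (0.0921). One fit of all 18 primary libraries, sharing one spread, called 9 lower members in total RNA, with the lost calls named there, and 9 in subpolysomes. In subpolysomes it added Sesn1, Trp53, Ppm1d, Gdf15, Mdm2, Xpc and Zmat3 (adjusted p 0.00430, 0.0147, 0.0221, 0.02275, 0.0370, 0.0481 and 0.0485). DESeq2 added Ccng1 in polysomes (adjusted p = 0.0378), Mdm2 and Gdf15 in subpolysomes (0.0335 and 0.0419) and Gdf15 across the WT gradient (0.0183). Half-sites with 1 mismatch were found for 17 members and full sites, added after seeing the data, for 1.

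Leaving out each library gave 7 to 8 higher and 14 to 16 lower members in total RNA, 3 to 6 and 7 to 10 in polysomes (3 higher without WT 3), and 4 to 6 and 3 to 5 in subpolysomes (3 lower without the library labelled WT 1 or KO 3). Across the gradient it gave 12 to 14 and 11 to 12 in WT and 8 to 12 and 11 to 14 in KO, and for cancer against primary 3 to 6 and 20 to 25. The ratio change and the labelled cancer comparison stayed at 0.

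With the replicate block 7 higher and 15 lower members were called in total RNA, 6 and 10 in polysomes, 13 and 12 across the WT gradient and 12 and 14 across the KO gradient. Ccng1 and Apaf1, given with those results, were the calls it changed where every same-numbered pair had an r above 0.1. The ratio change stayed at 0 members, with 12 genes in all against 1 without the block. Same-numbered subpolysome libraries correlated weakly (r 0.12, 0.087 and 0.12), with 0.087 under the threshold of 0.1, but above every pair of different numbers (r -0.12 to 0.0089). There the block called 7 higher and 7 lower, adding Trp53, Mdm2 and Sesn1 (adjusted p 0.0340, 0.0358 and 0.0291). Those calls depend on whether the numbers pair these libraries. Total RNA libraries share only a number (r 0.40, 0.14 and -0.16). Cancer numbers ran against each other (r -0.39), and a crossed block, chosen after seeing the data, called 0 members.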
